A study of Mus musculus with 12 samples.

Results

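Rods of mice with both Shp2 alleles floxed (KO rods) were compared with rods of mice with 1 floxed allele (Het rods). The comparison covered all genes in RNA pulled down with rod ribosomes. The members are the 6 rod libraries of the 12 libraries in the series, chosen by their sample titles: 3 from KO mice and 3 from Het mice, all littermates aged 2 weeks. Het mice were RiboTag; Shp2 fl/+; i75-Rod-Cre and KO mice were RiboTag; Shp2 fl/fl; i75-Rod-Cre. Both genotypes therefore carried the rod-specific Cre and HA-tagged ribosomal protein Rpl22, and no rod library came from mice without Cre or with 2 unfloxed alleles. The sample titles call the Het mice wt. The remaining 6 libraries hold whole-retina RNA of the same genotypes and are used here only where the rod result is set against them.

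Shp2, encoded by Ptpn11, is a protein tyrosine phosphatase that binds docking proteins such as Gab1 downstream of receptor tyrosine kinases and is best known for passing their signal to Ras and the kinase ERK. Active ERK induces immediate early genes such as Fos and Egr1 within minutes and also feedback inhibitors such as Spry2. Rods are the dim-light photoreceptors of the retina. They make very large amounts of outer segment proteins and depend on glycolysis for energy. Translating ribosome affinity purification (TRAP) recovers the mRNA attached to the tagged ribosomes, so a library reports a gene's share of ribosome-bound rod mRNA, and fewer rods or less RNA per rod cannot be told apart.

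The table gave 1 whole number per gene and library, a read count that had been multiplied by a factor so that the 6 rod libraries share nearly the same total (16263948 to 16265259). An estimated 11900000 to 25300000 reads lay behind these totals. Below, "value" is the deposited number. A mean is given after a further scaling by the trimmed mean of M values (TMM), with its SD over 3 libraries. A fold change is the difference in log2(scaled value + 2), KO minus Het, with its standard error (SE), and p-values come from limma with Benjamini-Hochberg adjustment over all genes tested. A gene was called only when its adjusted p was under 0.05 and its log2 fold change was above 0.5 or below -0.5. In the library of KO rods replicate 2, Xist had a value of 39 and 4 Y-linked genes summed to 0, whereas the other 5 rod libraries had 0 for Xist and 1557 to 2389 for the Y-linked genes. KO replicate 2 thus differed in sex markers from all other rod libraries, and results without it are given where they differ. In retina, too, replicate 2 of the KO was the only library with Xist (1209) and without the Y-linked genes (0). The sources used here do not tie rod and retina libraries to individual mice.

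The targeted gene was lower in KO rods by less than the limit for a change. Ptpn11 (ENSMUSG00000043733) had values of 2511, 2439 and 2431 in the Het rods and 1735, 2139 and 1971 in the KO rods. Every KO value lay below every Het value, and KO replicate 1 was the lowest. The log2 fold change was -0.28 (SE 0.09, adjusted p = 0.0408 from limma), and -0.34 (SE 0.08, adjusted p = 0.0294 from limma) once the trend described next had been removed. The adjusted p with the trend removed exceeded 0.05 when any library other than KO replicate 2 was left out. In whole retina the values overlapped, at 2390, 2512 and 2125 in the Het and 2205, 2147 and 2466 in KO. A floxed allele can still be transcribed after its floxed part is lost, and the table does not separate those reads from the rest. How complete the deletion was in these rods was not tested. All 16 rod markers were tested. Before the trend was removed, 5 were called higher and 0 lower, against 10.7% and 2.34% of all genes, with a median log2 fold change of 0.21. Their sums, with the trend left in, ranged from 2745000 to 3084000 in Het and from 3177000 to 3568000 in KO rods, without overlap. With the trend removed 0 of them were called in limma, and their median log2 fold change was 0.06. An unadjusted p below 0.05 was then found for 6, against 22.4% of all genes.

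The main difference between the genotypes followed the base composition of the genes. Genes were sorted by the GC content of their transcript into 10 groups of equal size. The median log2 fold change rose through every group, from -0.29 in the lowest to 0.67 in the highest (Spearman correlation 0.70 across 12991 genes, which are not independent replicates and share the same libraries). As scaled, 1407 of 13144 genes were higher in KO rods (10.7%) and 307 were lower (2.34%). In the group of highest GC content 53.1% of genes were called higher and 0% lower, and in the lowest group 0.0769% were called higher and 7.92% lower. The trend was present in every library. From the lowest to the highest group, values fell by 0.81, 0.23 and 0.42 on the log2 scale in Het replicates 1, 2 and 3, relative to the mean of all 6 libraries, and rose by 0.42, 0.76 and 0.28 in KO replicates 1, 2 and 3. The genotypes did not overlap in this trend, so GC content as a property of the libraries and the effect of the KO on GC-rich genes cannot be told apart.

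**Figure D1:**
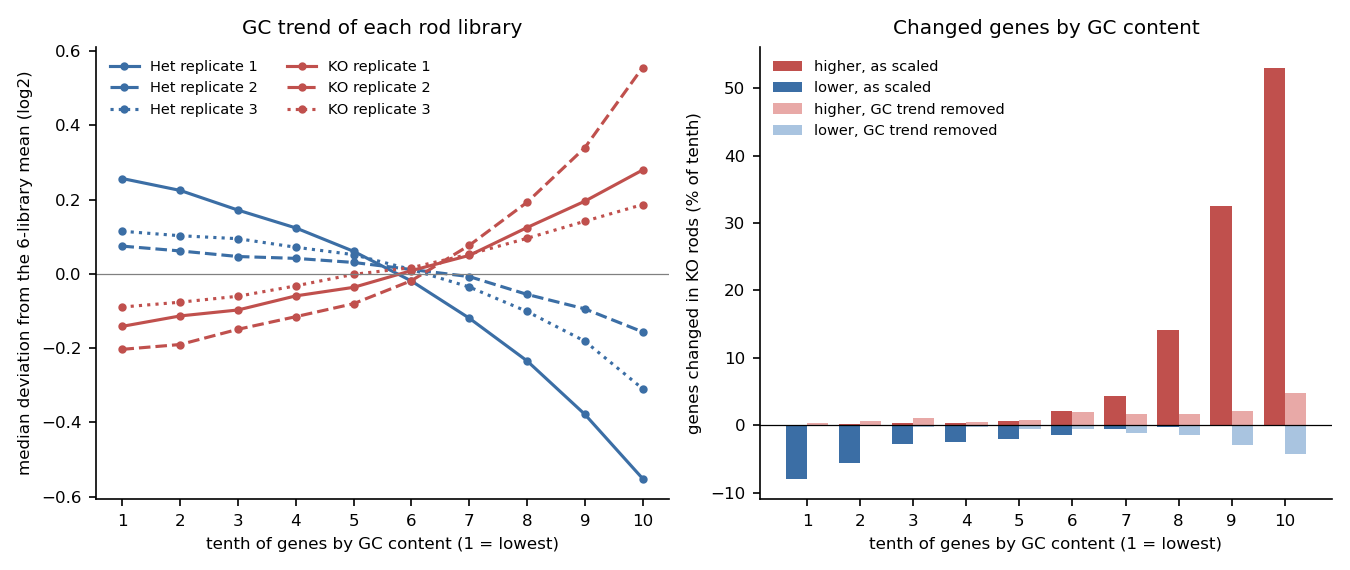
Left, the median deviation of each rod library from the mean of all 6 (log2, vertical axis) in 10 groups of genes of rising GC content (horizontal axis), with Het libraries in blue and KO libraries in red; the 3 Het lines fall and the 3 KO lines rise. Right, the percentage of genes in each group called higher (above 0) or lower (below 0) in KO rods, in dark colours as scaled and in pale colours with the trend of each library removed; as scaled, 53.1% of the highest group were called higher.

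To find what differed beyond this trend, a smooth curve of deviation against GC content was fitted in each library and subtracted. Of the 12991 genes of known GC content, 201 were then higher in KO rods (1.55%) and 153 were lower (1.18%), 354 in all (2.72%). Both treatments called 208 genes, 171 higher and 37 lower, and 0 genes were called in opposite directions. The other genes called higher as scaled, 1236 in number, were no longer called. Conversely, 116 genes were called lower only with the trend removed. All 116 had a GC content above the median, and for 109 of them the log2 fold change as scaled was within 0.5 of 0: they were lower relative to genes of like GC content, not lower in value by the limit used. The genotypes did not overlap for 44.7% of genes as scaled and for 28.1% with the trend removed. The 354 calls rest on limma's trend and robust options. Without these options 0 genes were called in limma, with 2620 genes at an unadjusted p below 0.05 (2911 with them) and a smallest adjusted p of 0.0937. Leaving out KO replicate 2 left 99 genes higher and 107 lower, and leaving out Het replicate 1 or KO replicate 1 left 189 and 225 changed genes. When GC content was taken from the coding sequence in place of the whole transcript, 571 genes were called, of which only 164 were among the 354.

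**Figure D2:**
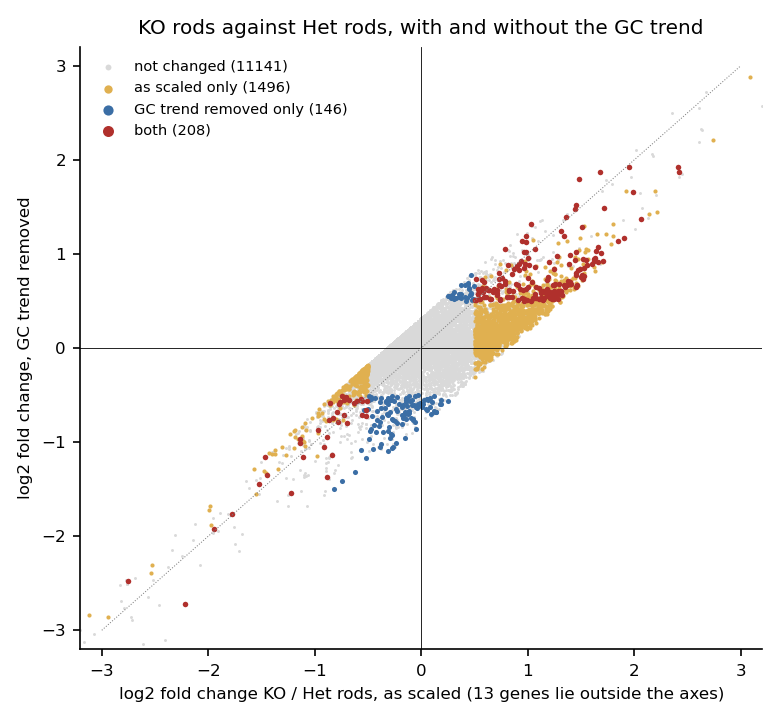
Each point is a gene, with its log2 fold change KO over Het rods as scaled (horizontal axis) and with the GC trend of each library removed (vertical axis); 13 genes lie outside the axes. Gold points (1496 genes of known GC content) were called only as scaled and lie mostly on the right between 0 and 0.5 of the vertical axis, red points (208) were called both ways, and blue points (146) only with the trend removed.

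The genes called with the trend removed had further features in common that the rule did not use. The 153 genes that fell were short, with a median transcript length of 1837 bases against 2623 bases for the 201 that rose and 2953 for all tested genes. Both sets also varied between whole-retina libraries of 1 genotype. Their median SD within a genotype in retina, with the GC trend removed, was 0.39 (log2) for the genes that rose in rods and 0.36 for those that fell, against 0.18 for all tested genes. Of the genes that rose, 92% had a retina SD above the median of all tested genes, and of those that fell 89.3% did. Within the rod libraries the SDs were closer to the background, at 0.19 and 0.18 against 0.15. In retina, 77% of the genes that rose in rods had a log2 fold change above 0 and 14.8% of those that fell did, against 45.6% of all tested genes, with median retina values of 0.10 and -0.12. No retina gene was called (0 of 16706 with the trend removed in limma, with 254 at an unadjusted p below 0.05). The part of this variation between libraries in the rod result was not tested.

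Among protein-coding genes with a mean of at least 100 that were called both ways and did not overlap, 126 rose and 14 fell. The 10 largest rises were those of Rpl23a, Isoc2a, Fos, Rpl18, Sf3b5, Timm13, Cystm1, Ost4, Gnb2 and Gm49450. Isoc2a (ENSMUSG00000086784), of the isochorismatase domain family, had values of 129, 205 and 144 in the Het rods and 434, 452 and 401 in the KO rods. All 3 KO values were about level and above the highest Het value. Its mean rose from 156 ± 39.5 to 439 ± 34.7 (SD, n = 3), and its log2 fold change was 1.51 as scaled and 1.29 with the trend removed (SE 0.13, adjusted p = 0.000726 from limma). Timm13, a chaperone that carries proteins across the space between the mitochondrial membranes, had values of 77, 137 and 99 in the Het and 284, 444 and 238 in the KO rods. KO replicate 2 was the highest here, and the log2 fold change with the trend removed was 1.07 (SE 0.18, adjusted p = 0.00538 from limma). Gnb2, a beta subunit of heterotrimeric G proteins, had values of 58, 100 and 70 in the Het and 204, 299 and 206 in the KO rods. The change on the log2 scale was 1.69 as scaled and 1.01 with the trend removed (SE 0.15, adjusted p = 0.00249 from limma). Isoc2a, Timm13, Gnb2 and Gm49450 kept their calls whichever rod library was left out and under the 4 other GC corrections tried, as Cystm1 did except with GC content of the coding sequence.

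The largest rise, that of Rpl23a, a protein of the large ribosomal subunit, rested on fewer libraries. Its values were 172, 303 and 232 in the Het and 621, 671 and 525 in the KO rods, with a log2 fold change of 1.52 (SE 0.22, adjusted p = 0.0138 from limma, trend removed). The call was lost without Het replicate 3 or without KO replicate 1, as were those of Rpl18 and Rps9. Sf3b5, a splicing factor subunit, had values of 72, 87 and 93 in the Het and 139, 231 and 128 in the KO rods and lost its call without any of the 3 Het libraries or KO replicate 1. Ost4, a small subunit of the oligosaccharyltransferase, had values of 135, 185 and 149 against 267, 386 and 249. It lost its call without Het replicate 1 or Het replicate 3. In whole retina these genes varied widely within a genotype. Rpl18 had values of 676, 1688 and 453 in the Het and 843, 519 and 2195 in KO retina, a wider range than in rods, where they were 422, 687 and 625 against 1295, 1706 and 1158. Timm13 in retina had 135, 367 and 67 in the Het and 167, 106 and 353 in KO, and Gnb2 had 340, 827 and 202 against 444, 294 and 911. For these 3 genes the genotypes overlapped in retina and not in rods.

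Of the 14 falls counted above, the 10 largest were those of 9030025P20Rik, Smim19, Gabbr1, Gm5460, Polg2, Kctd6, Xpa, Tpm4, Gtf2a2 and Cmas. All were smaller than the rises named above. A call as scaled was required, and 116 of the 153 genes that fell with the trend removed lacked it. Some of those fell more with the trend removed, such as Cdkn1c (-0.93) and Ndufb1 (-0.90). Polg2, the accessory subunit of the mitochondrial DNA polymerase, had values of 1642, 1819 and 1660 in the Het and 1026, 1021 and 1406 in the KO rods. KO replicate 3 lay nearest to the Het libraries, without overlap. This gave a log2 fold change of -0.52 as scaled and -0.66 with the trend removed (SE 0.10, adjusted p = 0.00504 from limma), and its call held in every left-out fit and GC correction. Gabbr1, a subunit of the metabotropic GABA receptor, had values of 1387, 1406 and 1264 in the Het and 826, 746 and 1098 in the KO rods, a log2 fold change of -0.71 (SE 0.13, adjusted p = 0.0142 from limma) that was no longer called without Het replicate 1 or KO replicate 1. Kctd6, an adaptor of cullin 3 ubiquitin ligases, had values of 209, 195 and 223 against 130, 112 and 108. The 3 KO values were all well below the lowest Het value, and the log2 fold change was -0.60 (SE 0.13, adjusted p = 0.018 from limma), lost without Het replicate 1, Het replicate 3 or KO replicate 3. The fall of Gtf2a2, a subunit of the general transcription factor TFIIA, was lost without Het replicates 1 or 3 or KO replicate 1, that of Gm5460 without Het replicates 2 or 3 or KO replicates 1 or 2, and that of 9030025P20Rik without any library other than Het replicate 2. Smim19 fell by 0.72 (SE 0.12) and Cmas, which activates sialic acid, by 0.56 (SE 0.10) on the log2 scale with the trend removed. The fall of Cmas was lost without Het replicate 1. The falls of Xpa, a DNA damage recognition protein, and of Tpm4, a tropomyosin, were each lost without Het replicates 1 or 3 or KO replicates 1 or 2. In retina, the genotypes overlapped for Polg2 (811, 702 and 802 against 718, 810 and 637) and for Gabbr1 (2562, 2661 and 2280 against 2771, 2265 and 2016).

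**Figure D3:**
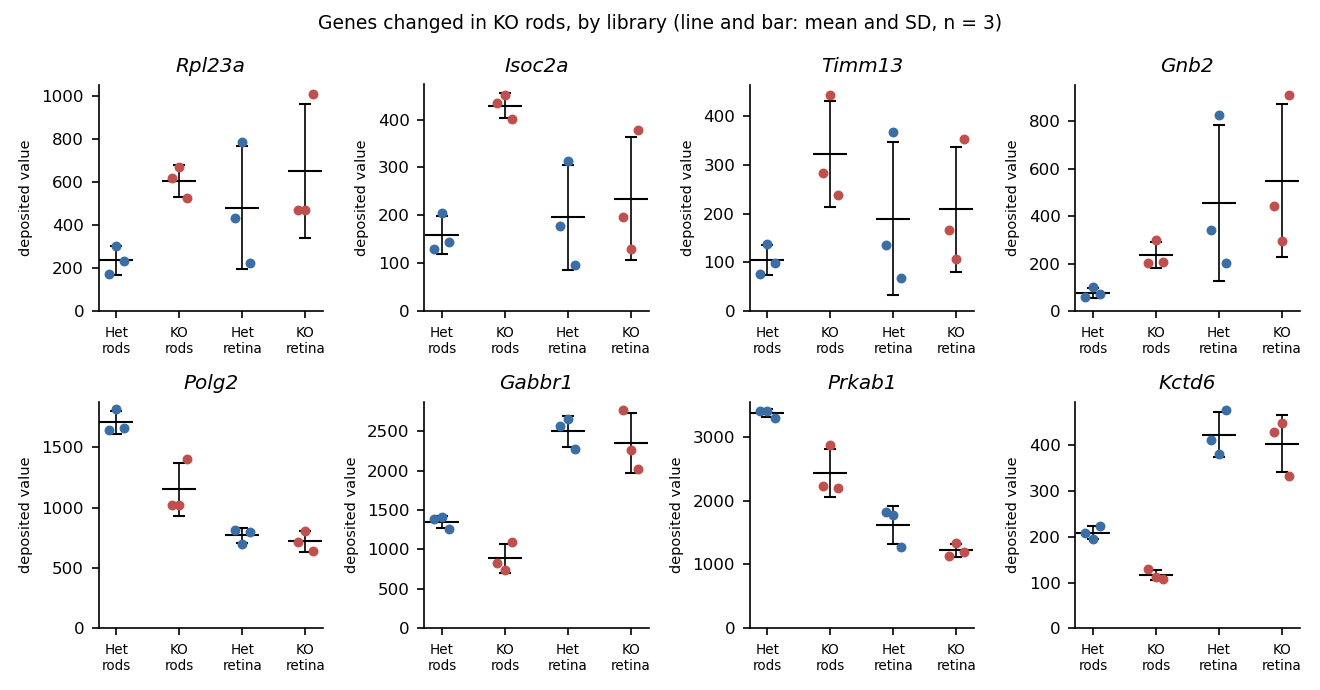
Deposited values of 8 genes in every library, with Het in blue and KO in red, rods on the left and whole retina on the right of each panel; the line and bar are the mean and SD of 3 libraries. In rods the genotypes do not overlap for any of the 8, whereas in retina Rpl23a, Isoc2a, Timm13 and Gnb2 spread as widely within a genotype as they differ between rod genotypes.

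Of the 354 genes, 105 were called in every fit that left out 1 rod library (59 higher, 46 lower), 135 under all 4 other GC corrections (88 higher, 47 lower) and 52 under both conditions (32 higher, 20 lower). These 52 were assembled after the values had been seen. Of the 32 higher genes, Crocc encodes rootletin, the fibre that anchors the connecting cilium of photoreceptors, Klc3 a kinesin light chain and Dctn1 the large subunit of dynactin, which links dynein to its cargo. Dctn1 had values of 1997, 2720 and 2279 in the Het and 4794, 5934 and 4460 in the KO rods, a log2 fold change of 1.18 as scaled and 0.56 with the trend removed (SE 0.07, adjusted p = 0.000987 from limma). Crocc had 535, 752 and 630 against 1542, 2334 and 1295, and its log2 fold change dropped from 1.46 to 0.67 when the trend was removed. Others among the 32 were Fasn, the fatty acid synthase (0.67), Esrra, a nuclear receptor that controls mitochondrial genes (0.92), Mif, a cytokine and tautomerase (0.88), Taldo1 (0.60) and Ckb (0.61). In all of these the log2 fold change as scaled was larger, from 0.82 for Taldo1 to 1.66 for Esrra. Zfp207, a zinc finger protein that binds microtubules (0.69), Rnf145, a ubiquitin ligase of the endoplasmic reticulum (0.74), and the splicing kinase Clk1 (0.56) were different, since they have low GC content (43.82%, 44.54% and 40.92%) and rose against the trend. For Zfp207 the values were 1858, 1808 and 1835 in the Het and 2644, 2020 and 2525 in the KO rods.

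The 20 lower genes included Prkab1, Mbd2, Pop5, Siah2, Egln1, Cdkn1c and Tapbp. Prkab1, a regulatory subunit of the energy-sensing kinase AMPK, had values of 3407, 3402 and 3297 in the Het and 2233, 2863 and 2200 in the KO rods. The 3 Het values were nearly level and lay above all KO values. The log2 fold change was -0.41 as scaled and -0.76 with the trend removed (SE 0.09, adjusted p = 0.00099 from limma). Mbd2, which binds methylated DNA, had 1439, 1437 and 1436 in the Het and 1115, 1120 and 1165 in the KO rods, with no overlap and little spread in either genotype, and log2 fold changes of -0.28 and -0.75. Egln1, the oxygen sensor that marks HIF for degradation, fell by 0.61 with the trend removed. Its values overlapped, at 2082, 2336 and 2331 in the Het and 2092, 1868 and 1768 in the KO rods, and as scaled its log2 fold change was -0.17. Cdkn1c, an inhibitor of cyclin-dependent kinases, had 211, 179 and 204 against 165, 152 and 151.

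Prkab1 and Pop5, a subunit of ribonuclease P, lie on chromosome 5 of GRCm38, as does Ptpn11, at 21 and 42 tested genes from it in map order. Within 100 tested genes on each side of Ptpn11, 12 of 200 genes were called with the trend removed (6%, against 2.72% of all genes), 6 higher and 6 lower. Of these, Gm14508, at values of 205, 267 and 300 in the Het and 139, 112 and 159 in the KO rods, and Gm15728, at 81, 70 and 64 against 26, 38 and 39, lie between Pop5 and Ptpn11, as does Gm13841, which rose, at 29, 61 and 48 against 107, 157 and 98. Gm13841 lost its call without Het replicate 1 or KO replicate 2. Gm15728 lost its call without any of the 3 Het libraries or KO replicate 1. In retina Prkab1 had values of 1816, 1767 and 1274 in the Het and 1129, 1331 and 1198 in the KO libraries, which overlap, and a log2 fold change of -0.45 (SE 0.19, adjusted p = 1 from limma). On chromosome 17, 8 of 30 consecutive tested genes from Bag6 to H2-T22 were called, the most in any such stretch, and by chromosome the share of called genes was highest on chromosomes 7 (4.96%), 8 (4.71%) and 17 (3.72%). The stretch holds class I histocompatibility genes. H2-T22 had values of 3, 3 and 16 in the Het and 28, 26 and 26 in the KO rods, and H2-T24 had 24, 25 and 25 against 5, 4 and 15. Both belong to a family of similar genes, for which the assignment of reads is uncertain, and each lost its call when any of 5 libraries was left out (all but Het replicate 3 for H2-T22 and all but KO replicate 3 for H2-T24). The called genes of the stretch also include Ier3 and Tubb5, described below. H2-T24 was lower in 2 of 3 KO retina libraries than in any Het retina library as well, at 15, 12 and 40 against 102, 68 and 38. These positions were picked after the values had been seen.

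Signalling genes were examined first by their place in the pathway. Of 16 tested genes for Shp2 and its adaptors, 0 were called with the trend removed and 0 as scaled in limma, with 2 at an unadjusted p below 0.05 after removal. Their median log2 fold change was 0.02, against 0.01 for all genes. Sirpa, a receptor that recruits Shp2, had the highest mean of the list and values of 5808, 6460 and 5388 in the Het and 6197, 6243 and 6224 in the KO rods, which overlap. Gab1 had values of 89, 80 and 78 against 63, 66 and 90, a log2 fold change of -0.20 (SE 0.18, adjusted p = 0.561 from limma). Of 22 kinases and regulators from Ras to ERK, 0 were called with the trend removed in limma (5 at an unadjusted p below 0.05), and their median was -0.04. Map2k2, the ERK kinase MEK2, had values of 165, 262 and 210 against 410, 625 and 376. It was called as scaled, at a log2 fold change of 1.19, whereas with the trend removed the value was 0.50 (SE 0.12, adjusted p = 0.0306 from limma) and just under the limit. Map2k5, the kinase of ERK5, had a log2 fold change of -0.35 (SE 0.10, adjusted p = 0.0535 from limma).

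The immediate early and feedback genes, at the output of this pathway, had a higher median than the kinases. Of 20 tested genes 5 rose with the trend removed and 0 fell, against 1.55% of all genes that rose. The median log2 fold change was 0.55 as scaled and 0.38 with the trend removed, against -0.03 and 0.01 for all genes, and 17 of the 20 lay above 0, against 51.9% of all genes. The median stayed between 0.28 and 0.48 under every alternative that removed the trend. The 5 genes were Fos, Ier3, Ier2, Jun and Spry2. Another 13 genes of the list, among them Arc and Npas4, were under the filter on low values. Upstream sequence is shown for Fos, Ier3 and Jun because these members moved together. It is the 250 bases before the transcription start from RefSeq on GRCm38.p6, 5′ to 3′ on the gene's strand, which were found for 3 of 4 genes looked up. Capitals mark TGACG, the core of the cyclic AMP response element, TATAA, the TATA box core, and TGACATCA, the AP-1 site known from the Jun promoter, with each searched on both strands and no overlaps between them. The windows lie at chr12:85473640-85473889 on the plus strand for Fos, chr17:35821463-35821712 on the plus strand for Ier3 and chr4:95052223-95052472 on the minus strand for Jun.
Fos: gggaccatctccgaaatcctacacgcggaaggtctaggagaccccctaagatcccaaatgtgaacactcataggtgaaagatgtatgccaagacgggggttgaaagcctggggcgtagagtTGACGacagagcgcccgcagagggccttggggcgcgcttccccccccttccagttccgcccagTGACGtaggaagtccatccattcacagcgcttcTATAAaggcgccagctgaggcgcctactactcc
Ier3: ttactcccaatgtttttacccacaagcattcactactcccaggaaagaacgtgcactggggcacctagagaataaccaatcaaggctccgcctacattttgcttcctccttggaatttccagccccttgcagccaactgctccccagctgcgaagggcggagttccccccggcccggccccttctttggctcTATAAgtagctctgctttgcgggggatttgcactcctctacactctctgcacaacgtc
Jun: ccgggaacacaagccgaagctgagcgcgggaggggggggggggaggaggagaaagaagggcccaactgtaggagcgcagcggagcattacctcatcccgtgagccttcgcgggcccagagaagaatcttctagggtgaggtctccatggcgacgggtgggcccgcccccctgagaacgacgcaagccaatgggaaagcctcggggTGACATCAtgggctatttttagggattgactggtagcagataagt

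Of 32817 such windows 17.7% hold TGACG, 22.8% hold TATAA and 2.93% hold TGACATCA. The Fos window holds TGACG at 129 to 125 and at 66 to 62 bases before the start and TATAA at 33 to 29, the Ier3 window TATAA at 58 to 54, and the Jun window TGACATCA at 45 to 38. The CArG box, the site of serum response factor through which ERK acts on many of these genes, occurs in 1.47% of windows and in none of the 3 shown, which says only that its letters are not within these 250 bases. The match of a motif is a description of the sequence and not a measurement of binding.

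The values of these genes were as follows. Fos (ENSMUSG00000021250), a subunit of the AP-1 transcription factor, had values of 112, 204 and 117 in the Het rods and 395, 322 and 287 in the KO rods. Het replicate 2 was the highest of its group and still below the lowest KO value. The mean rose from 141 ± 50.5 to 343 ± 58.9 (SD, n = 3), and the log2 fold change was 1.31 as scaled and 1.24 with the trend removed (SE 0.23, adjusted p = 0.0215 from limma). Jun, the partner of Fos in AP-1, had values of 184, 196 and 175 in the Het and 346, 343 and 311 in the KO rods, with little spread in either genotype. The log2 fold change of Jun was 0.91 as scaled and 0.51 with the trend removed, close to the limit (SE 0.11, adjusted p = 0.0176 from limma). Ier3, an early gene that promotes survival and ERK activity, had 583, 716 and 913 against 1677, 1884 and 1291, and rose by 0.91 with the trend removed (SE 0.18, adjusted p = 0.0331 from limma). Ier2, an early nuclear regulator, had 33, 42 and 37 against 115, 136 and 90 and a log2 fold change of 0.89 (SE 0.18, adjusted p = 0.0104 from limma). Spry2, an inhibitor of signalling from receptor tyrosine kinases, has low GC content (46.19%) and was called only with the trend removed. It had values of 579, 552 and 719 in the Het and 754, 781 and 866 in the KO rods, and its log2 fold change was 0.45 as scaled and 0.62 with the trend removed (SE 0.10, adjusted p = 0.00346 from limma).

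Egr1, a zinc finger early gene, had a larger fold change than any of these 5 and did not pass the test with the trend removed. It had values of 82, 189 and 62 in the Het and 1019, 564 and 460 in the KO rods, with KO replicate 1 far above the others. Its log2 fold change was 2.74 as scaled (SE 0.55, adjusted p = 0.0272 from limma) and 2.21 with the trend removed (SE 0.54, adjusted p = 0.108 from limma). Junb had 8, 6 and 2 against 25, 48 and 19 and an adjusted p of 0.0543 in limma after removal. Not all early genes were high in KO rods. Btg2, an inhibitor of proliferation, had the highest mean of the list and values that overlapped, at 1390, 1721 and 1534 against 1857, 1824 and 1487. Below 0 with the trend removed were Jund, another AP-1 subunit, at -0.73 (SE 0.22, adjusted p = 0.0624 from limma), and Dusp5, an ERK phosphatase, at -0.33 (SE 0.14, adjusted p = 0.188 from limma). As scaled these genes were at 0.09 and 0.16. Leaving out 1 library cost calls in this list: Fos was lost without Het replicates 1 or 3 or KO replicates 1 or 2, Ier3 without Het replicates 1 or 2 or KO replicates 1 or 2, Ier2 without KO replicates 1 or 2, and Jun without Het replicates 2 or 3 or KO replicate 1. Spry2 kept its call in all of these fits and lost it with GC content of the coding sequence.

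Values of several early genes were higher in KO than in Het whole retina too, though none passed the test there. Egr1 had values of 115, 252 and 98 in the Het and 844, 432 and 377 in KO retina, without overlap, and Ier3 had 388, 501 and 387 against 738, 652 and 645, also without overlap. For Fos the values were 104, 184 and 93 against 243, 170 and 197, and KO replicate 2 lay within the Het range. With the trend removed the retina log2 fold changes were 1.76 for Egr1 (SE 0.42), 0.63 for Ier3 (SE 0.14) and 0.71 for Fos (SE 0.23), each with an adjusted p of 1 in limma. Jun and Ier2 overlapped in retina, at 194, 278 and 151 against 230, 191 and 338 for Jun. The rod and retina libraries may come from the same mice, so they are not independent.

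**Figure D4:**
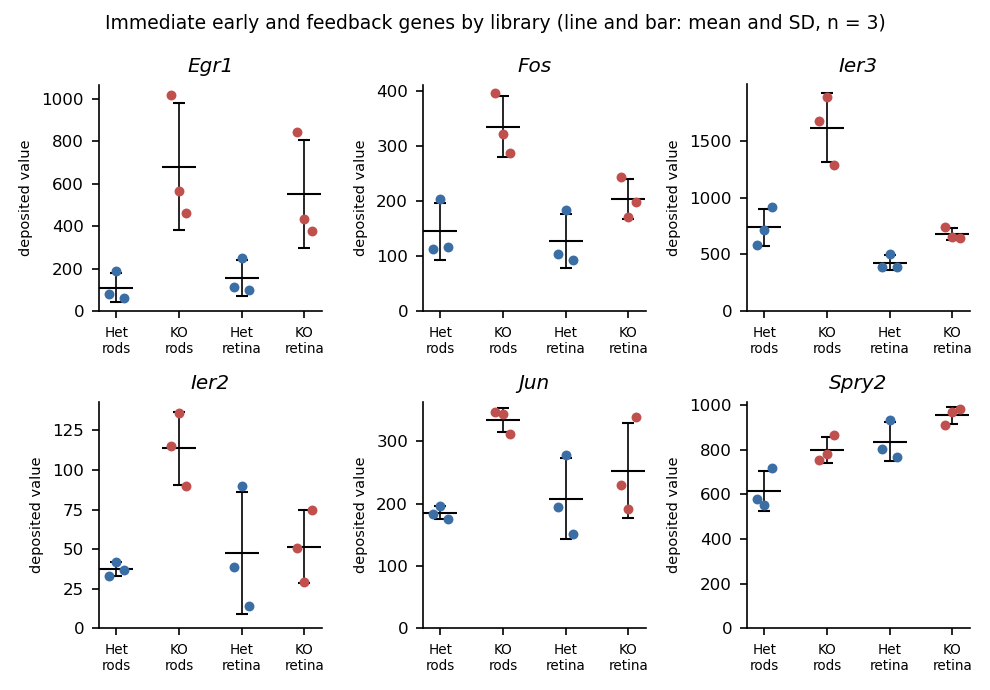
Deposited values of 6 immediate early and feedback genes in every library, with Het in blue and KO in red, rods and whole retina side by side, and the line and bar giving the mean and SD of 3 libraries. In rods every KO value lies above every Het value for all 6 genes; in retina this holds for Egr1 and Ier3 and not for Fos, Ier2, Jun or Spry2.

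Of 31 tested genes of insulin, Akt and mTOR signalling, 4 were higher as scaled (Rptor, Stk11, Akt1 and Pik3r2), against 10.7% of all genes. None of these was called with the trend removed, when 0 rose and 2 fell, Prkab1 and Gsk3a. Over all genes 1.55% then rose and 1.18% fell. Stk11, the kinase LKB1 that activates AMPK, had values of 577, 696 and 641 in the Het and 951, 1254 and 932 in the KO rods. On the log2 scale the fold change of Stk11 was 0.77 as scaled and 0.10 with the trend removed (SE 0.08, adjusted p = 0.515 from limma). Gsk3a, a kinase inhibited by Akt, had overlapping values of 1380, 1524 and 1466 against 1416, 1614 and 1447. Its log2 fold change was 0.10 as scaled and -0.57 with the trend removed (SE 0.08, adjusted p = 0.00175 from limma), so its fall is relative to genes of like GC content alone.

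Among genes of energy metabolism, 9 of 27 tested were called higher as scaled in glycolysis, 3 of 7 in the pentose phosphate pathway and 9 of 37 in complex I, against 10.7% of all genes. Most of these were not called with the trend removed. The glycolytic genes called as scaled included Pkm, Aldoa, Eno1, Pfkl, Gapdh and the glucose carrier Slc2a1. With the trend removed 0 of the 27 were called in limma (14 at an unadjusted p below 0.05, 51.9% of the list against 22.4% of all genes), and the median log2 fold change was 0.31 as scaled and 0.14 after removal. Pkm, pyruvate kinase, had values of 41196, 51089 and 47951 in the Het and 75186, 82250 and 73066 in the KO rods. For Pkm the log2 fold change was 0.79 as scaled and 0.23 with the trend removed (SE 0.05, adjusted p = 0.0191 from limma). Pfkl and Gapdh kept 0.43 and 0.41, under the limit. Slc2a1 had values of 1795, 2576 and 2397 against 3246, 3151 and 3157 and a log2 fold change of 0.58 as scaled and 0.32 with the trend removed (SE 0.08, adjusted p = 0.0342 from limma). Hk1 and Hk2, the hexokinases, were at -0.17 and 0.13 with the trend removed, and neither passed the test. Aldoc was at 0.36 (SE 0.07, adjusted p = 0.00679 from limma) and Ldha, Ldhb and Pdha1 were at 0.22, 0.14 and 0.21. Eno1b, a near-identical copy of the enolase gene Eno1, was called at 0.69 (SE 0.10), while Eno1 was at 0.16. Reads can be divided between them, so the call is uncertain.

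In the other metabolic lists outside the respiratory chain, Taldo1 and Ckb rose, and Mpc2 and Eci2 fell. Over all genes 1.55% rose and 1.18% fell with the trend removed. Taldo1, transaldolase of the pentose phosphate pathway, had values of 1097, 1515 and 1244 in the Het and 2060, 2463 and 1969 in the KO rods, and was 1 of 7 tested genes of that pathway to rise with the trend removed, at 0.60 (SE 0.10, adjusted p = 0.00419 from limma). Pgd and Tkt were at 0.36 and 0.46, under the limit, and G6pdx, the first enzyme, at -0.16. Ckb, the brain creatine kinase that buffers ATP, had values of 2726, 3690 and 3411 against 7170, 9503 and 6372. Its log2 fold change was 1.29 as scaled and 0.61 with the trend removed (SE 0.08, adjusted p = 0.000987 from limma), so more than a doubling in value corresponds to a 1.52-fold rise beyond genes of like GC content.

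With the trend removed, the counts of the next 2 lists compare with 1.55% of all genes that rose and 1.18% that fell. Of 31 tested genes of the TCA cycle and pyruvate entry, 0 rose and 1 fell, around a median of 0.01. This was Mpc2, a subunit of the mitochondrial pyruvate carrier, with values of 954, 818 and 841 in the Het and 645, 622 and 636 in the KO rods, a log2 fold change of -0.57 (SE 0.10, adjusted p = 0.00498 from limma) that was lost without Het replicate 1. Of 30 tested genes of fatty acid oxidation, 0 rose and 1 fell, around a median of 0.05. This was Eci2, an enoyl-CoA isomerase, with 272, 224 and 278 against 170, 188 and 173 and a log2 fold change of -0.52 (SE 0.13, adjusted p = 0.028 from limma), lost without Het replicates 1 or 3 or KO replicates 1 or 3. Neither gene's values overlapped between the genotypes.

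Subunits of the respiratory chain moved in both directions with the trend removed. Of 37 tested complex I subunits, 9 were higher as scaled. After removal 2 rose, Ndufs7 (0.71) and Ndufb7 (0.78), and 3 fell, Ndufb1 (-0.90), Ndufb9 (-0.53) and Ndufb10 (-0.51), around a median of 0.04. Over all genes 1.55% rose and 1.18% fell after removal. None of the 3 falls was called as scaled, where they stood at -0.43, -0.14 and -0.12. Ndufb1 had values of 1051, 947 and 1082 in the Het and 788, 724 and 678 in the KO rods, Ndufb7 had 175, 250 and 223 against 465, 817 and 464, and both separate without overlap. The rises of Ndufb7 and Ndufs7 were lost without Het replicate 1, that of Ndufs7 also without Het replicate 3, and the falls of Ndufb9 and Ndufb10 without KO replicate 3, the former also without Het replicate 3 and the latter without Het replicate 1. Of 18 tested ATP synthase subunits, Atp5d rose (0.60) and Atp5j (-0.83) and Atp5mpl (-0.67) fell, with a median of -0.11 against 0.06 as scaled. Atp5j and Atp5mpl were not called as scaled, at -0.39 and -0.42. The call of Atp5d was lost without KO replicate 2. Atp5j had 2329, 2239 and 2222 against 1658, 1663 and 1620. These subunits have very short transcripts (809 bases for Atp5j and 861 for Ndufb1), and the fall of Atp5j was lost with GC content of the coding sequence. Among 21 genes of complexes III and IV and 13 genes of the mitochondrial genome 0 were called in limma, with 9 and 0 at an unadjusted p below 0.05.

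Ribosomal protein genes had a median above that of all genes, and their calls depended on single libraries. Of 81 tested genes of the cytosolic ribosome, 24 were higher as scaled and 0 lower, against 10.7% and 2.34% of all genes. With the trend removed 8 rose, among them Rpl23a, Rpl18, Rps9, Rpl28, Rpl15, Rps20 and Rps3, and 2 fell (Rpl38 and Rpl30), and the median log2 fold change was 0.21, against 0.27 as scaled. The rises compare with 1.55% of all genes and the falls with 1.18%. Of the 81, 47 had an unadjusted p below 0.05 (22.4% of all genes did), and for 51 the genotypes did not overlap (28.1% of all genes), with KO higher in 43 of them and lower in 8. The most abundant members, Rpl4 and Rpl7, were at 0.22 and 0.01, and neither was called. Each of the 8 rises was lost without Het replicate 3 and without KO replicate 1, and 5 of them also without KO replicate 2. Rpl30 lost its fall without Het replicates 2 or 3 or KO replicates 1 or 3. Without Het replicate 3 the list had 1 rise, and without KO replicate 1 it had 0. Many of these genes have processed copies in the genome between which reads can be divided. The tagged protein of the purification, Rpl22, belongs to this family in all libraries of both genotypes. Of 58 tested initiation and elongation factors 0 were called in limma (16 at an unadjusted p below 0.05), with a median of 0.01. Of 76 mitochondrial ribosomal proteins 0 rose and 2 fell (Mrps6 and Mrps15), against 1.55% and 1.18% of all genes. Both of these falls were lost without Het replicate 1, KO replicate 2 or KO replicate 3.

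In the lists for phototransduction, outer segment, cilium and synapse, 0 genes passed both the adjusted p and the fold change limit with the trend removed, although several unadjusted counts were above the 22.4% of all genes. Of 22 tested phototransduction genes 2 were higher as scaled, Pde6g and Cngb1, a share near the 10.7% of all genes. With the trend removed 0 were called in limma (8 at an unadjusted p below 0.05), with a median of 0.09. Gnat1, the alpha subunit of rod transducin, was at -0.09 and not called. Of 20 genes of outer segment discs and matrix, 5 were higher as scaled, against the same 10.7%. After removal 0 were called (7 at an unadjusted p below 0.05). Prph2, the tetraspanin of disc rims, had values of 135989, 164177 and 164254 in the Het and 216472, 240077 and 204310 in the KO rods. For Prph2 the log2 fold change was 0.58 as scaled and 0.31 with the trend removed (SE 0.06, adjusted p = 0.00796 from limma), a separation without overlap and under the limit. For 13 genes of the BBSome, 29 of intraflagellar transport, 22 of the transition zone, 12 of lipidated protein trafficking and 26 of the ribbon synapse, 0 were called in limma with the trend removed (2, 6, 6, 6 and 9 at an unadjusted p below 0.05). Their medians were 0.01, -0.01, 0.07, -0.15 and 0.07.

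Of 18 tested photoreceptor transcription factors, 4 were higher as scaled, against 10.7% of all genes. With the trend removed 2 rose, against 1.55%, and 6 had an unadjusted p below 0.05, against 22.4%. Samd11, a repressor that acts with the polycomb complex in rods, had values of 2241, 2977 and 2562 in the Het and 4863, 5891 and 4684 in the KO rods, and log2 fold changes of 1.06 as scaled and 0.53 with the trend removed (SE 0.07, adjusted p = 0.00126 from limma), a call lost without KO replicate 2. Rax, a homeobox gene of early retina, was at 0.52 and lost its call without Het replicates 1 or 3 or KO replicates 1 or 2. Crx and Nrl, the factors that set rod identity, were not called. Crx had values of 45466, 40772 and 42460 against 39820, 39051 and 40342, which do not overlap and whose log2 fold change was -0.04 as scaled and 0.03 with the trend removed, and Nrl had 69066, 70021 and 72718 against 66929, 70506 and 66428, which overlap.

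Counts of rises among genes that make and process RNA compare with 1.55% of all genes. Of 13 RNA polymerase II subunits, 3 rose (Polr2e, Polr2f and Polr2l, at 0.57, 0.70 and 0.54), with a list median of 0.03, and all 3 were lost without Het replicate 1 or KO replicate 2. Of 54 spliceosome genes 3 rose (Srsf11, Snrpa and Sf3b5). Srsf11, which has low GC content (45.04%), had values of 1325, 1207 and 1290 in the Het and 1579, 1391 and 1569 in the KO rods and a log2 fold change of 0.53 with the trend removed (SE 0.07, adjusted p = 0.00135 from limma), a call lost without KO replicate 1. Snrpa was lost without Het replicate 3, KO replicate 1 or KO replicate 2. Of 15 tubulins, 7 were higher as scaled, against 10.7% of all genes. Only Tubb5, the most abundant, stayed called with the trend removed, at 0.71 (SE 0.11, adjusted p = 0.0068 from limma), though not without Het replicate 3. Its values were 5449, 7364 and 6355 in the Het and 11216, 10975 and 9224 in the KO rods. Ube2m, the conjugating enzyme that passes Nedd8 on to cullins, fell by 0.70 relative to genes of like GC content while its values overlapped, at 782, 938 and 943 against 913, 981 and 808. Of 36 proteasome subunits, 30 genes of the unfolded protein response, 46 of autophagy and lysosome and 33 of antioxidant defence, 0 were called with the trend removed in limma (9, 8, 10 and 11 at an unadjusted p below 0.05). The same held for 5 tested genes of the interferon response and 5 of photoreceptor injury (0 and 1 at an unadjusted p below 0.05).

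In 310 tested zinc finger genes named Zfp, 25 were higher and 8 lower as scaled and with the trend removed 3 rose (Zfp207, Zfp414 and Zfp583) and 1 fell (Zfp503). Over all genes, 10.7% were higher and 2.34% lower as scaled, and 1.55% rose and 1.18% fell with the trend removed. Of 41 DNA replication genes, 2 rose (Rfc2, a clamp loader subunit, and Mcm5, of the replicative helicase) and 1 fell (Prim1, of primase), against the same 1.55% and 1.18%. Mcm5 lost its call without any of the 6 libraries and Prim1 without any of 4, while Rfc2 kept its call in all of these fits. The libraries for Prim1 were Het replicates 2 and 3 and KO replicates 1 and 2. Among 36 cyclins, kinases and checkpoint genes only Cdkn1c was called. H2bc8, a histone gene, had values of 13, 26 and 16 in the Het and 58, 84 and 44 in the KO rods, with a log2 fold change of 1.49 (SE 0.28, adjusted p = 0.00799 from limma).

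Further genes the study names were near or under the limit. For Cops5, Ptprr, Mlxipl and Gper1, as for Map2k5 and Stk11 above, the paper reports predicted activation or inhibition. These predictions came from pathway analysis of its own comparison of KO and Het rods and are not measured changes of RNA. Ocln, encoding the tight junction protein occludin, had values of 81, 70 and 52 in the Het and 86, 67 and 80 in the KO rods, which overlap. Its log2 fold change was 0.27 as scaled and 0.56 with the trend removed (SE 0.19, adjusted p = 0.0905 from limma). Cops5, the catalytic subunit of the COP9 signalosome, had 1193, 1169 and 1133 against 933, 887 and 896, a separation without overlap. Its log2 fold change was -0.30 as scaled (SE 0.08, adjusted p = 0.0185 from limma) and -0.12 with the trend removed, since the gene has low GC content (46.05%). Ptprr had values of 7, 3 and 4 against 8, 6 and 1, Gfap 4, 3 and 0 against 7, 3 and 0, and Mlxipl 0, 0 and 1 against 0 in each KO library. Il10, Il1b and Gper1 were at 0 in all 6 rod libraries. All 6 genes were under the filter and not tested.

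Summed markers of other retinal cells, with the GC trend left in, overlapped between the genotypes except for microglia and amacrine cells. None of 11 cone, 10 Müller, 12 bipolar, 7 amacrine, 8 ganglion, 4 horizontal, 4 vascular and 5 RPE markers tested was called with the trend removed in limma, with 1, 0, 0, 1, 1, 0, 0 and 0 of them at an unadjusted p below 0.05. Summed amacrine markers ranged from 657 to 741 in Het and from 807 to 1119 in KO rods, without overlap. The member with the highest mean, Slc6a9 (320), was called higher as scaled, at 0.71 (adjusted p = 0.00537 from limma). With the trend removed Slc6a9 was at 0.19 (adjusted p = 0.456 from limma). All 7 amacrine markers tested had a log2 fold change above 0 with the trend removed, against 51.9% of all genes. Summed Müller markers ranged from 7057 to 8940 in Het and from 7328 to 8068 in the KO rods. Of 16 microglia markers only 3 passed the filter, and 0 of these were called in limma (3 at an unadjusted p below 0.05). As scaled 2 of the 3 were called lower in KO rods, against 2.34% of all genes. With the trend removed the genotypes did not overlap for any of the 3, against 28.1% of all genes without overlap. The median of the 3 was then -2.85. Microglial Lcp1 had values of 24, 59 and 180 against 0, 7 and 2. Lens markers differed most between single libraries, with sums of 5.85 in Het replicate 1, 3388 and 4854 in Het replicates 2 and 3, and 2086, 4189 and 16650 in KO replicates 1 to 3. All 13 tested lens markers had a log2 fold change above 0 with the trend removed, with a median of 1.85, and 0 were called in limma (0 at an unadjusted p below 0.05). The part of the microglia, amacrine and lens RNA in the rod result was not tested.

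The KO effect in rods was finally compared with that in whole retina in a single model of all 12 libraries, with the trend removed. In limma, 0 of 12865 genes had a difference with an adjusted p under 0.05 (473 at an unadjusted p below 0.05). For Isoc2a it was 1.05 (SE 0.46, adjusted p = 0.977 from limma), for Fos 0.53 and for Egr1 0.45. The large spread between retina libraries enters this test, so a change in rods alone was not shown for any gene. With 3 libraries per genotype the smallest two-sided p of an exact permutation test is 0.1. Apart from KO replicate 2, whose sex markers set it apart from the other libraries of its genotype, the sources used here do not say whether libraries of a genotype came from separate mice.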

How the data were processed

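Ribosome-bound RNA from HA immunoprecipitates of rods (TRAP) and RNA of whole retina were sequenced by the authors after SMART-Seq V4 amplification of polyadenylated RNA. The submitters' processing notes name CASAVA 1.8.2, HISAT2, DESeq2, edgeR and GRCm39, without their roles. The deposited table gives a signal per gene and library: whole numbers whose totals are nearly equal, which were inferred to be read counts scaled per library by the authors and rounded. They are not raw counts, so limma (version 3.58.1, R version 4.3.3) was run on log2(TMM-scaled value + 2), with the trend and robust options, on genes that reached 10 in 3 or more of the 6 rod libraries and 15 in their sum. In the second fit, a natural spline (5 degrees of freedom) of each library's deviation from the mean against GC content was subtracted first. GC content came from the longest protein-coding transcript of a gene, or its longest transcript where it has none, in GENCODE M21 (GRCm38), and no coordinates were carried between builds. The scripts were tested on simulated data. Figures were drawn with matplotlib in Python.

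Genes named are Ptpn11, genes the study names, the 10 largest rises and falls described above, and from each gene list at most 2 members with the highest mean and at most 4 changed members. Others were named after their values were seen, including those of the 52 genes. The comparison, members and lists were chosen with earlier results of these data known. 0 columns of other samples were present. Replicates share numbers across genotypes, and the fit without a block is reported. Alternatives changed the scaling, pseudocount, filter, limma options, GC correction, the replicate block and each library in turn. p-values measure only the spread between these libraries. A few genes of the lists are not reported here by name.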

Additional observations from a re-analysis of the deposited data

How the results depend on the processing

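Scaling, pseudocount and a stricter filter left the counts of changed genes within 1.5 times. The larger movements were these. As scaled, the count went from 1714 to 1078 without limma's trend and robust options and ranged from 876 to 1932 with 1 library left out, lowest without Het replicate 1 and next lowest, 1094, without KO replicate 2. Scaling by library size alone shifted the median of all genes from -0.03 to -0.09 on the log2 scale and gave 1203 higher and 590 lower genes, 67.1% higher against 82.1%. With the GC trend removed, the 354 genes became 540 with no filter (391 higher, 149 lower), 0 without the limma options and 571 with GC content of the coding sequence (255 higher, 316 lower), and ranged from 189 to 388 with 1 library left out. The cause of these movements was not tested. For the difference between rods and retina, 0 genes became 4 without Het replicate 3 and stayed at 0 with any other rod library left out, and no retina library was left out.

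Same-numbered rod libraries had correlations of their deviations of 0.18, 0.03 and 0.02 as scaled. Pairs of unlike numbers ranged from -0.16 to 0.12. These values do not settle whether replicate numbers pair the libraries. A replicate block gave 1845 genes as scaled and 419 with the GC trend removed, of which 340 were among the 354. Calls of Gsk3a, Rpl38 and Ube2m turned in sign when the GC trend was not removed, to 0.099, 0.006 and 0.087, with or without the replicate block, and with GC content of the coding sequence Rpl30, Rpl38 and Ube2m stood at 0.058, 0.13 and 0.017. Over named genes, 362 alternative values were no longer called and 68 became called. The depth, 11900000 to 25300000 estimated reads, limits genes near the filter.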
